A study of Mus musculus with 8 samples.

Results

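Cholesterol synthesis was followed through 8 genes on arrays of epididymal fat (white adipose tissue that lies along the epididymis) from male mice with and without the lysophosphatidic acid receptor LPA4. The 8 genes were taken by name, with every probe set (a group of short probes for 1 transcript) that the platform annotation gives them: Hmgcs1, Mvd, Idi1, Fdps, Fdft1, Sqle, Insig1 and Srebf2. All 8 were found, at 19 of the 34945 probe sets that carry 1 gene symbol, among 18193 genes in all. The 4 LPA4-KO mice were Lpar4 -/Y, deficient in the X-linked gene of the receptor, and the 4 WT mice were wild-type littermates. All were C57BL/6 males of 12 weeks on standard chow, with 1 array per mouse. The sources used here do not give the kind of Lpar4 allele, nor the time of day and feeding state when tissue was taken. Signals are log2 values from the deposited table, group errors are SD with n = 4, and differences are LPA4-KO minus WT with their SE or a 95% interval.

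Cells make cholesterol from acetyl-CoA through mevalonate, isoprenoids and squalene. When membrane sterol is low, the transcription factor SREBP2, encoded by Srebf2, is carried from the endoplasmic reticulum to the Golgi, cut, and sent to the nucleus, where it switches on the genes of this pathway, its own gene among them. INSIG1 holds the SREBP complex back in the endoplasmic reticulum when sterol is sufficient, and Insig1 is itself an SREBP target. White fat stores a large pool of free cholesterol, and its adipocytes take up much of it from lipoproteins.

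In these arrays the first enzyme gene of the set and the sterol sensor lay on opposite sides of the WT level. Hmgcs1 stood 1.56-fold to 1.91-fold lower in LPA4-KO fat at its 5 probe sets, and Insig1 stood 1.29-fold higher. Idi1 and Fdft1 overlapped between the genotypes, and Mvd, Fdps, Sqle and Srebf2 were listed at nearly the same value on every array. No member passed an adjusted p of 0.05 in limma over all named probe sets, where 0.933% of probe sets passed (0.612% higher, 0.321% lower), although 8 of the 19 had an unadjusted p under 0.05, against 16.9% of all named probe sets. Of these 8, 5 were Hmgcs1, 1 was Insig1, and 2 were flat probe sets of Fdps and Sqle. The 2 shares compare unlike sets, since 10 of the 19 spanned over 0.1 log2, against 6682 of the 34945. Of the 5889 named probe sets with an unadjusted limma p under 0.05, 3293 were among the 28263 flat ones. When limma was run on the 6682 probe sets that spanned over 0.1 log2, 4 Hmgcs1 probe sets were lower and Insig1 was higher at an adjusted p under 0.05. In that fit 18.8% of all probe sets passed, 10.5% lower and 8.35% higher.

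The flatness of the table bears on every value here. Of the named probe sets 80.9% had a range of at most 0.1 log2 over 8 arrays, and their median range was 0.00052. Of the 19 member probe sets 9 were of this kind and 10 varied. Such a flat value is not evidence that a gene stayed the same. The targeted gene was lower at 1 of its 3 probe sets: Lpar4 1452424_at read 5.78, 5.86, 5.83 and 5.74 in LPA4-KO mice and 6.48, 6.51, 6.53 and 6.54 in WT mice (difference -0.71 ± 0.03, adjusted p = 0.0033). Its other probe sets were not lower, with differences of 0.68 ± 0.24 and 0.48 ± 0.25. Correlations between arrays over the varying probe sets ran from 0.952 to 0.992. The number of arrays limits the precision.

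The promoters of Hmgcs1, Insig1 and Srebf2 are printed because Hmgcs1 and Insig1 carry the differences and Srebf2 encodes the factor that acts on such promoters. Each runs from 250 bases before to 50 bases after the RefSeq start site, 5′ to 3′ on the gene's strand, in build GRCm38.p6. All 3 genes lie on the plus strand. Capitals mark letters of a sterol regulatory element core (TCACCCCA), of the box read by NF-Y (CCAAT, in these 3 as its reverse complement ATTGG) and of an E-box (CACGTG). Both strands were searched.
Hmgcs1, chr13:119690101-119690400: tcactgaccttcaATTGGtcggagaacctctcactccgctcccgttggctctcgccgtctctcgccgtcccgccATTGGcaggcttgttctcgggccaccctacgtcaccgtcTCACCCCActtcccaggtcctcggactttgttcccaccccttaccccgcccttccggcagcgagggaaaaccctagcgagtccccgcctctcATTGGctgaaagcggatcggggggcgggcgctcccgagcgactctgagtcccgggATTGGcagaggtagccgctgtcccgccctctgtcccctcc
Insig1, chr5:28071162-28071461: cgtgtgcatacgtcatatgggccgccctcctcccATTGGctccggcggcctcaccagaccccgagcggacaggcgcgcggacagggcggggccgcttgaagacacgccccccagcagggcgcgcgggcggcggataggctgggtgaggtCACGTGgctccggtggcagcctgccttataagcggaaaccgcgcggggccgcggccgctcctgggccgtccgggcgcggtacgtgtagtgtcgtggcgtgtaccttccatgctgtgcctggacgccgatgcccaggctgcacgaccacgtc
Srebf2, chr15:82147019-82147318: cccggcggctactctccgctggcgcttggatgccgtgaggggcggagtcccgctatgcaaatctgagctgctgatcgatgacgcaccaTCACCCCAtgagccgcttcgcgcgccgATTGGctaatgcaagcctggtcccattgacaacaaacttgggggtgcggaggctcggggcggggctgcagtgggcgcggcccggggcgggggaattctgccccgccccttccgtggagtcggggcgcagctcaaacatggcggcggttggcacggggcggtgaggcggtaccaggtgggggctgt
Promoters were given for 5 members, these 3 and those of Mvd and Idi1. TCACCCCA was in 2 of the 5, at -137 to -130 from the start site (counted as 0) in Hmgcs1 and at -162 to -155 in Srebf2, and in 1.56% of 32851 promoters of the same length. The wider form TCACNCCAC, which overlaps the first at Hmgcs1, was in 1 of the 5 and in 1.24% of all promoters. CCAAT was in all 5 and in 37.4% of all promoters, with 4 copies in Hmgcs1. CACGTG was in Insig1 alone of the 5, at -101 to -96, and in 7.15% of all promoters. A match is a description of letters and not a measured binding site.

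Hmgcs1 encodes the cytosolic synthase that joins acetyl-CoA and acetoacetyl-CoA into HMG-CoA, the substrate of the rate-limiting reductase. The gene lies on chromosome 13 at 119690351 to 119708260 (GRCm38.p6). At 1433446_at, the probe set with the largest difference, the signal was 8.91, 8.78, 9.49 and 9.40 in LPA4-KO mice and 10.20, 10.59, 9.94 and 9.58 in WT mice. All 4 LPA4-KO arrays lay below all 4 WT arrays, with the closest pair 9.49 and 9.58. LPA4-KO mice averaged 9.14 ± 0.35 and WT mice 10.08 ± 0.42, a difference of -0.93 ± 0.27, or 1.91-fold lower (95% interval -1.57 to -0.29). The adjusted p was 0.16 over all named probe sets and 0.026 among the varying ones, and the exact two-sided permutation p was 0.0286, the smallest that 4 against 4 arrays can give.

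The other probe sets of Hmgcs1 gave the same order of the genotypes. At 1433443_a_at the values were 9.67, 9.71, 10.46 and 10.20 in LPA4-KO mice and 10.70, 11.28, 10.83 and 10.52 in WT mice (difference -0.82 ± 0.24). At 1433444_at they were 10.12, 10.10, 10.59 and 10.44 in LPA4-KO mice and 10.91, 11.39, 10.93 and 10.60 in WT mice (-0.64 ± 0.20). The groups did not overlap at either, but at the second the closest arrays were LPA4-KO replicate 3 and WT replicate 4 at 10.59 and 10.60. At 1433445_x_at, a type of probe set that may also bind other transcripts, the values were 10.32, 10.29, 10.79 and 10.60 in LPA4-KO mice and 11.13, 11.60, 11.10 and 10.74 in WT mice (-0.64 ± 0.20). Here LPA4-KO replicate 3 lay above WT replicate 4, so the groups overlapped by 1 array on each side. Adjusted p for these 3 ran from 0.17 to 0.20 over all named probe sets and from 0.028 to 0.036 among the varying ones.

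The fifth Hmgcs1 probe set, 1441536_at, was dimmer. It read 6.00, 6.10, 6.00 and 5.77 in LPA4-KO mice and 6.85, 7.55, 6.02 and 6.54 in WT mice. The LPA4-KO arrays were close together, and the WT arrays were spread from 6.02 to 7.55, with replicate 3 inside the LPA4-KO range. The difference was -0.77 ± 0.32, with an adjusted p of 0.29 over all named probe sets and 0.073 among the varying ones. The 5 probe sets read 1 gene in the same RNA and are not separate observations of it. Across them LPA4-KO replicates 3 and 4 were the higher LPA4-KO arrays at 4 probe sets, and WT replicate 2 was the highest WT array at all 5.

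**Figure D1:**
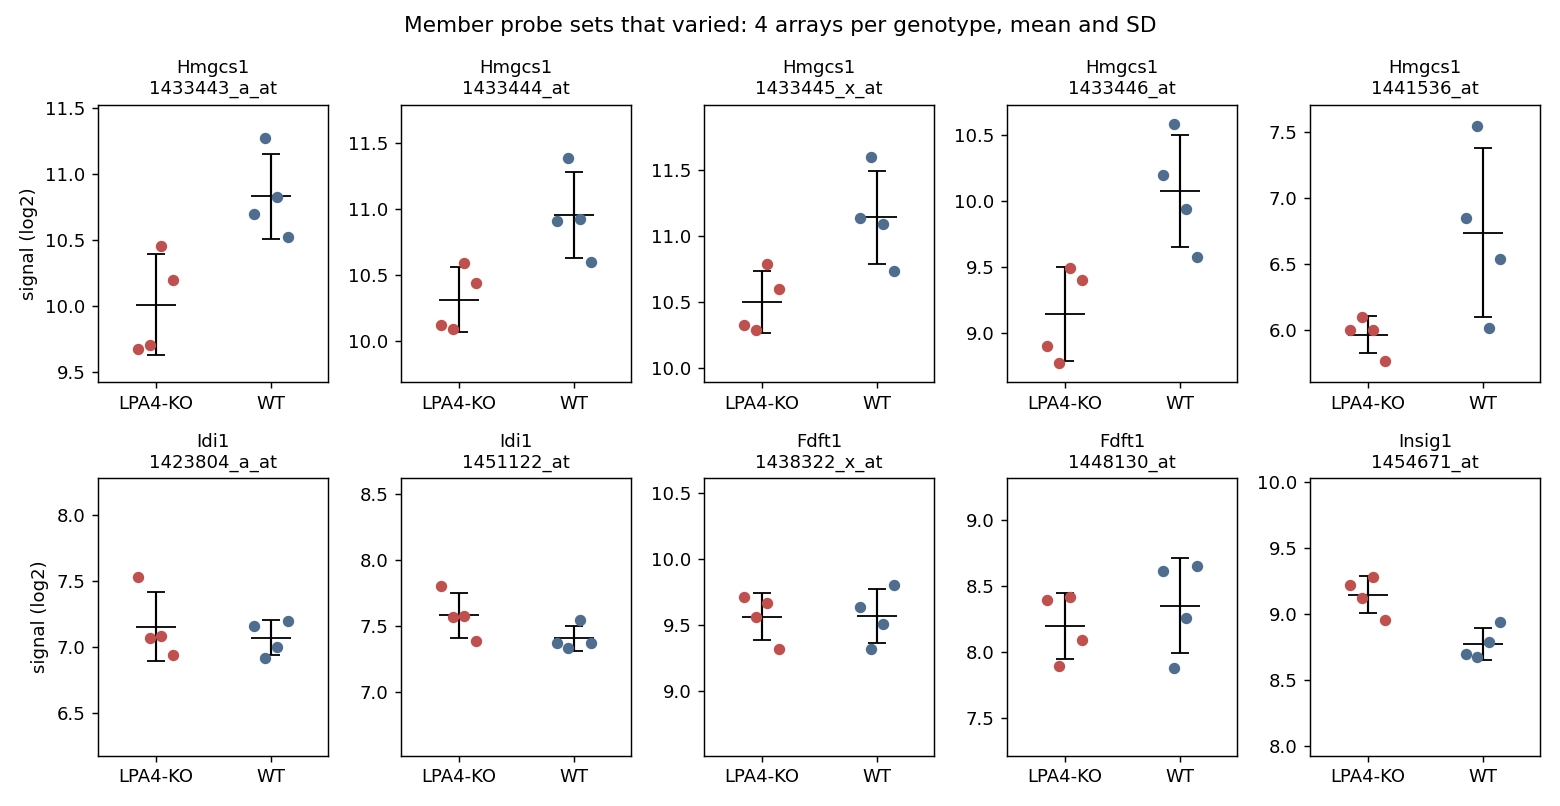
Signal (log2, vertical axes, each spanning 2.1 log2) at the 10 member probe sets that varied, with LPA4-KO arrays in red on the left and WT arrays in blue on the right of each panel, 4 per genotype, and the mean with its SD in black. Hmgcs1 lies lower and Insig1 higher in LPA4-KO mice, and the Idi1 and Fdft1 groups overlap.

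Markers of other cells of the pad also differed in level, and in bulk tissue fewer cells of a type and less RNA per cell cannot be told apart. Over the varying probe sets of each list, all 9 of progenitors and fibroblasts were lower in LPA4-KO mice, with mean signals per array of 8.89 to 9.12 in LPA4-KO and 9.33 to 9.59 in WT mice. All 12 of mesothelial cells were lower, with 7.75 to 8.26 in LPA4-KO and 8.16 to 8.95 in WT mice. All 8 of macrophages were lower too, with 9.81 to 9.97 in LPA4-KO and 9.93 to 10.25 in WT mice. Of all 6682 varying probe sets 3796 differences were negative. Over all named probe sets 2 of 13 progenitor and fibroblast probe sets passed, those of Dpt and Dcn, where 0.321% of all passed lower. Of the mesothelial probe sets 0 of 12 passed, and of the macrophage ones 0 of 9. Hmgcs1 and Insig1 were called in the fit of the varying probe sets. There 6 of 9 progenitor and fibroblast, 4 of 12 mesothelial and 2 of 8 macrophage probe sets passed, all lower in LPA4-KO mice. In that fit 10.5% of all varying probe sets passed lower. The mean of the adipocyte markers did not separate, with 11.09 to 11.15 in LPA4-KO and 11.01 to 11.24 in WT mice. Of its 8 differences 5 were positive, and 0 passed in either fit. Groups did not overlap at 1 of the 8, Retn 1449182_at, which was higher (0.18 ± 0.06, adjusted p = 0.20, and 0.059 among the varying ones). Of all varying probe sets 28.2% did not overlap. Adipoq was nearly constant. The single endothelial probe set that varied and both lymphocyte ones were lower on average in LPA4-KO mice, and no probe set of the epididymis list varied. Their part in the differences between genotypes of Hmgcs1, Insig1 and Cyp27a1 was not tested.

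From mouse to mouse within genotypes, deviations of these marker means were set beside those of Hmgcs1 1433445_x_at and Insig1, 12 pairs over 8 arrays, an analysis added after the data were seen. The macrophage mean had r = -0.834 with Hmgcs1 (exact permutation p = 0.0260, adjusted over 12 pairs 0.156) and rho = -0.833 (exact permutation p = 0.0208, adjusted 0.125), and r = -0.871 without the 2 farthest arrays. Between genotypes macrophage markers and Hmgcs1 were both lower on average in LPA4-KO mice. Whether these differences are related was not tested. The Hmgcs1 probe set used here is of the type that may also bind other transcripts. The adipocyte mean had r = 0.788 with Insig1 (exact permutation p = 0.0052, adjusted 0.062) and rho = 0.905 (exact permutation p = 0.0052, adjusted 0.062), and r = 0.850 without the 2 farthest. With Hmgcs1 the adipocyte mean had r = -0.734 and rho = -0.643 (exact permutation p = 0.122 and adjusted p = 0.486 for each), and r = 0.152 without the 2 farthest arrays, so this rests on those. The progenitor and mesothelial means had r from 0.00027 to 0.397 with Hmgcs1 and Insig1, with adjusted exact permutation p from 0.779 to 1.

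Insig1 encodes the sterol-sensing anchor that keeps SREBP in the endoplasmic reticulum and also takes part in the breakdown of the reductase. The gene lies on chromosome 5 at 28071412 to 28078662 and has 1 probe set. Its signal was 9.22, 9.12, 9.27 and 8.96 in LPA4-KO mice and 8.69, 8.67, 8.79 and 8.94 in WT mice. The groups did not overlap, and the closest arrays were LPA4-KO replicate 4 at 8.96 and WT replicate 4 at 8.94. LPA4-KO mice averaged 9.14 ± 0.14 and WT mice 8.77 ± 0.12, a difference of 0.37 ± 0.09 (95% interval 0.16 to 0.58). The adjusted p was 0.12 over all named probe sets and 0.027 among the varying ones, with an exact permutation p of 0.0286. Groups did not overlap at 4 of the 10 varying member probe sets, against 28.2% of all varying probe sets. LPA4-KO lay lower at 3 of these (15.4% of all varying probe sets) and higher at 1 (12.9%). The 3 lower ones all read Hmgcs1 in the same RNA and count as 1 gene, and the higher one was Insig1. With the flat probe sets counted, 5 of 19 did not overlap, 3 lower and 2 higher in LPA4-KO, against 12.5% of all named probe sets (5.71% lower, 6.75% higher).

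Calls of Hmgcs1 and Insig1 among the varying probe sets depended on which arrays were included. No member passed without LPA4-KO replicate 1 or without LPA4-KO replicate 2, and 3 of the 5 passed without LPA4-KO replicate 4. Without WT replicate 2 only Hmgcs1 1433446_at passed, and without WT replicate 3 only the dimmer Hmgcs1 1441536_at, which had not passed with all arrays. Insig1 lost its call without LPA4-KO replicates 1, 2 or 3 or WT replicates 2 or 3. The directions held in every one of these fits. With 1 array left out, Hmgcs1 1433446_at ran from -1.10 to -0.76 and Insig1 from 0.33 to 0.43. Hmgcs1 1441536_at ran wider, from -1.01 without WT replicate 3 to -0.50 without WT replicate 2.

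Between mevalonate and squalene, Idi1, which interconverts the isoprenoid building blocks isopentenyl and dimethylallyl diphosphate, was slightly higher on average in LPA4-KO fat without passing. At 1451122_at it read 7.80, 7.57, 7.58 and 7.39 in LPA4-KO mice and 7.38, 7.34, 7.55 and 7.38 in WT mice (0.18 ± 0.09, 95% interval -0.05 to 0.40, adjusted p = 0.41). At 1423804_a_at it read 7.53, 7.06, 7.08 and 6.93 in LPA4-KO mice and 7.16, 6.92, 7.00 and 7.20 in WT mice (0.08 ± 0.14, adjusted p = 0.83). The groups overlapped at both, and LPA4-KO replicate 1 was the highest array at each. Without LPA4-KO replicate 1 the difference at the first probe set was 0.10, and that at the second turned to -0.04. No change in Idi1 was detected, and the interval at the first probe set reaches up to 0.40 log2, past the difference of Insig1.

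Fdft1, the squalene synthase that commits farnesyl diphosphate to sterols, did not separate the genotypes. Its brightest probe set, 1438322_x_at, read 9.71, 9.55, 9.67 and 9.31 in LPA4-KO mice and 9.63, 9.31, 9.51 and 9.80 in WT mice. The 2 groups cover nearly the same range, and the difference was 0.00 ± 0.13 with a 95% interval from -0.32 to 0.31. At 1448130_at the values were 8.40, 7.90, 8.42 and 8.09 in LPA4-KO mice and 8.62, 7.88, 8.26 and 8.65 in WT mice (-0.15 ± 0.21, interval -0.66 to 0.36). The Hmgcs1 differences at 1433446_at, 1433443_a_at and 1441536_at lie outside both intervals. Those at 1433444_at and 1433445_x_at, both -0.64, lie inside the interval of Fdft1 1448130_at. The Hmgcs1 interval at 1433446_at, -1.57 to -0.29, overlaps both Fdft1 intervals, and the difference between the 2 genes was not tested. With 1 array left out, Fdft1 1448130_at ran from -0.31 without WT replicate 2 to -0.05 without LPA4-KO replicate 2.

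**Figure D2:**
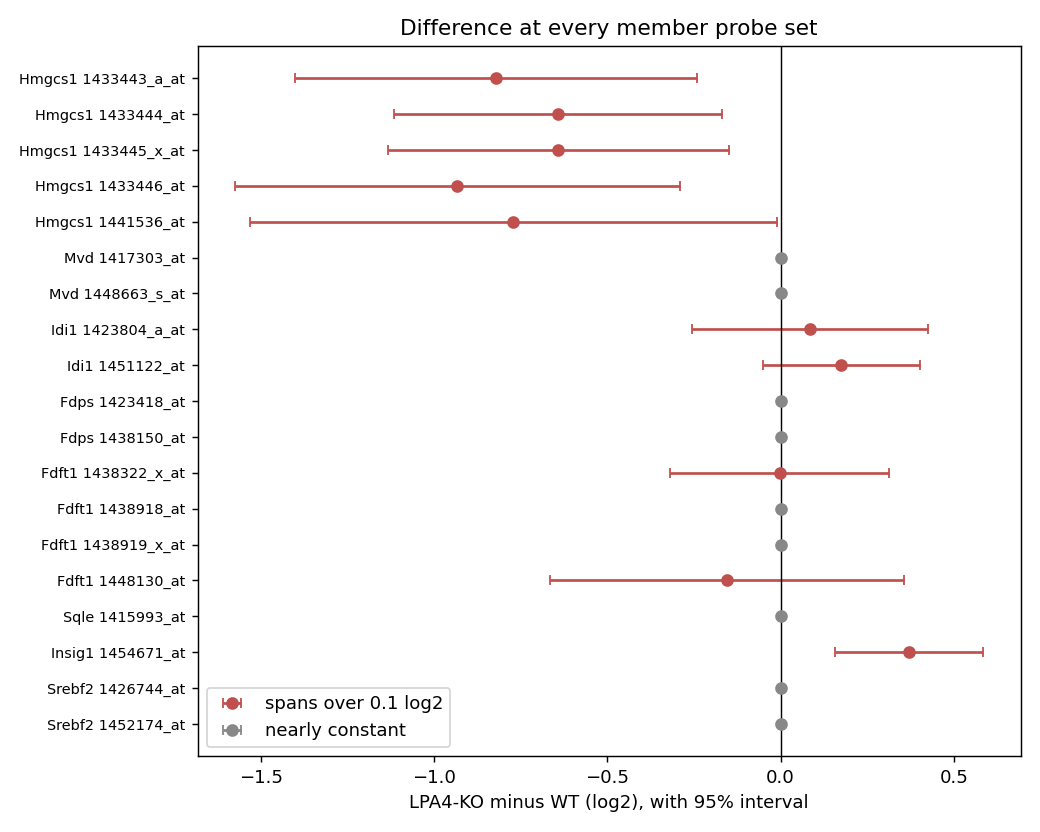
Difference between LPA4-KO and WT mice (log2, horizontal axis) at each of the 19 member probe sets, with the unadjusted 95% interval of the fit over all named probe sets (n = 4 arrays per genotype). The 5 Hmgcs1 intervals lie below 0, the Insig1 interval lies above 0, the Idi1 and varying Fdft1 intervals cross 0, and the 9 nearly constant probe sets (grey) sit at 0.

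The remaining members were flat. Mvd (mevalonate diphosphate decarboxylase) stood at 6.66 and 6.32 at its probe sets, Fdps (farnesyl diphosphate synthase) at 7.01 and 5.62, Sqle (squalene epoxidase, a second control point of the pathway) at 6.91, and Srebf2 at 6.85 and 6.88, in both genotypes. Fdft1 had a further pair of flat probe sets at 6.06 and 6.12. The largest difference among these 9 was 0.00084 log2, at Fdps 1423418_at, where all 4 LPA4-KO arrays lay above all 4 WT arrays. Fdps, Mvd, Sqle and Srebf2 therefore gave no usable measurement of a change in these arrays.

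The varying members also differed from mouse to mouse within a genotype. In LPA4-KO mice Idi1 1451122_at, Fdft1 1438322_x_at and Insig1 were all lowest in replicate 4, and Hmgcs1 1433445_x_at was highest in replicate 3. At the same probe sets in WT mice, Fdft1 and Insig1 were lowest in replicate 2 and highest in replicate 4. Hmgcs1 was the reverse there, and Idi1 was highest in replicate 3. Other probe sets differed in part. In LPA4-KO mice Fdft1 1448130_at was lowest and Hmgcs1 1441536_at highest in replicate 2. In WT mice Idi1 1423804_a_at was highest in replicate 4. These orders were not tested between the genotypes, and 4 arrays are too few for a correlation within 1 genotype, so both were pooled. Deviations of each array from its genotype mean were compared for Hmgcs1 1433445_x_at, Idi1 1451122_at, Fdft1 1438322_x_at and Insig1, 6 pairs over 8 arrays. The closest pair was Fdft1 and Insig1, with Pearson r = 0.860 (exact permutation p = 0.0156, adjusted over 6 pairs 0.094) and Spearman rho = 0.857 (exact permutation p = 0.0191, adjusted 0.115). Leaving out the 2 arrays farthest from the median gave r = 0.698. Fdft1 1438322_x_at is of the type that may also bind other transcripts, and the relation was not computed for Fdft1 1448130_at. Hmgcs1 had negative r with each of the others, -0.326 with Idi1, -0.652 with Fdft1 and -0.425 with Insig1, with exact permutation p from 0.123 to 0.411 and adjusted p from 0.318 to 0.411, and rho from -0.619 to -0.405 (adjusted p from 0.292 to 0.361). Without the 2 farthest arrays the r of Hmgcs1 was -0.45 with Idi1, -0.11 with Fdft1 and 0.10 with Insig1, so the last pair of relations rests on those arrays. Idi1 had r = 0.561 with Insig1 (rho = 0.690) and r = 0.509 with Fdft1 (rho = 0.524), with adjusted exact permutation p of 0.318 for both r, 0.266 and 0.296 for rho, and r of 0.17 and 0.0025 without the farthest arrays, so both rest on those.

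**Figure D3:**
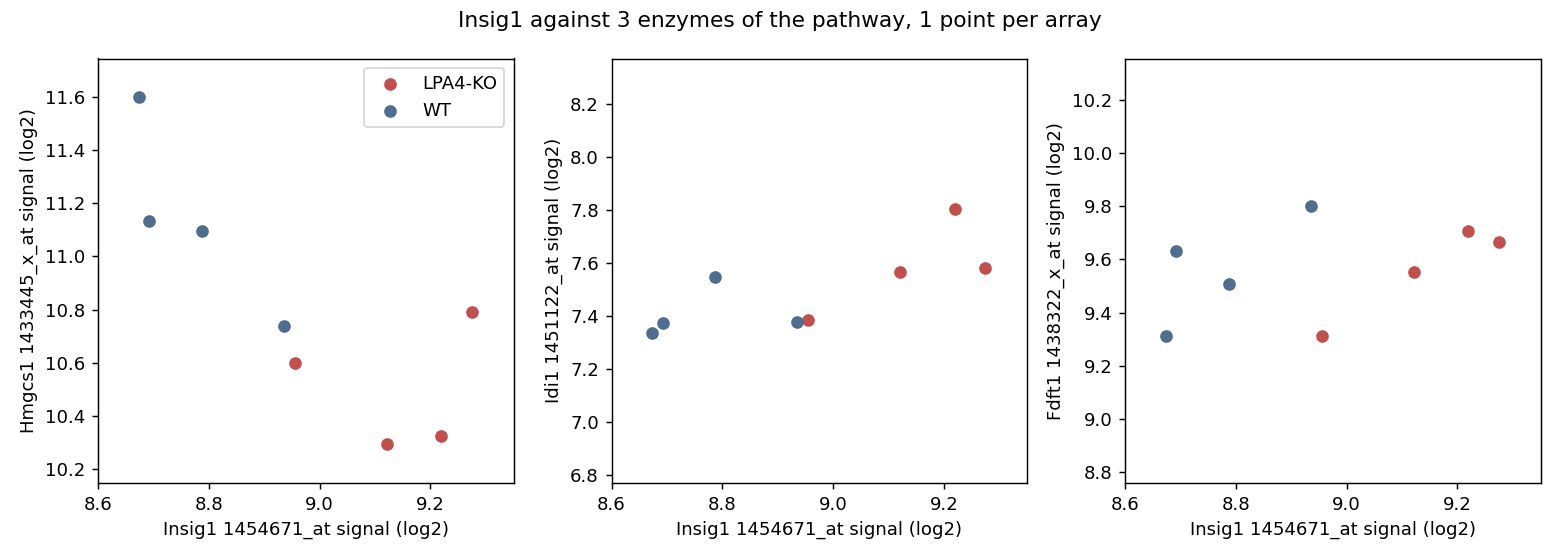
Signal of Hmgcs1 1433445_x_at, Idi1 1451122_at and Fdft1 1438322_x_at (log2, vertical axes) against the signal of Insig1 (log2, horizontal axis), 1 point per array. The 4 LPA4-KO arrays are in red and the 4 WT arrays in blue. LPA4-KO points lie at higher Insig1 and mostly lower Hmgcs1, and within each colour Fdft1 is lowest in the array with the lowest Insig1.

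The genes most like the members within genotype were found by the r of their deviations with the mean standardised deviation of these 4 members, over 8 arrays and 6672 probe sets. They were Iigp1 (r = 0.986), an interferon-induced GTPase, Klhl5 (0.980), Plaat3 (0.980), an adipocyte phospholipase, Srebf1 (0.967), and Psmb8 (0.966), a subunit of the immunoproteasome. Hmgcs1 had negative r with the other members of this mean, so the mean does not follow all 4 alike. The 5 genes were picked as the highest among 6672 probe sets over only 8 arrays, and the size of their r was not tested. None of the 5 passed between the genotypes over all named probe sets, with adjusted p from 0.25 to 0.91.

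Beyond the 8 members, 60 genes of sterol and isoprenoid metabolism were listed, 49 were measured and 27 had a varying probe set, and the rest were not analysed here. Over all named probe sets 1 of their 100 probe sets rose (Fnta) and 1 fell (Cyp27a1). The background was 0.612% rising and 0.321% falling. In the fit of varying probe sets 0 of their 41 passed higher and 2 passed lower (Cyp27a1 and Stard4). Of all varying probe sets 8.35% passed higher and 10.5% lower there. These counts depended on scaling. After quantile normalization of the varying probe sets 6 of the 41 passed, with Ggps1 1419506_at higher (0.31, adjusted p = 0.024 in limma). In that fit 796 of all varying probe sets passed higher and 473 lower. Among the 41 varying probe sets of these lists 19 differences were positive and 22 negative. Their median was -0.03 log2, where all 6682 varying probe sets had a median of -0.05. For the 10 varying member probe sets the median was -0.40, with Hmgcs1 giving 5 of them.

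Among the later sterol enzymes 0 of 20 probe sets passed in either fit, 16 were nearly constant, and the 4 that varied gave 3 positive differences (Cyp51 at 2 probe sets and Lss) and 1 negative one (Sc5d). Sc5d, the lathosterol desaturase, named here after its values were seen, differed by -0.19 ± 0.08 at 1451457_at (adjusted p = 0.30), and its groups overlapped. Cyp51, the lanosterol demethylase, read 7.00, 6.85, 6.62 and 6.97 in LPA4-KO mice and 6.71, 6.51, 6.43 and 6.44 in WT mice at 1422533_at (0.33 ± 0.10, adjusted p = 0.19, and 0.060 among the varying probe sets), and its 1450646_at differed by 0.35 ± 0.15. The groups overlapped at both, by LPA4-KO replicate 3 at the first. Lss, the cyclase that closes the sterol rings, read 6.83, 6.68, 6.65 and 6.61 in LPA4-KO mice and 6.47, 6.59, 6.57 and 6.58 in WT mice at 1426913_at, with no overlap (0.14 ± 0.05, adjusted p = 0.25). Ggps1, which makes geranylgeranyl diphosphate, differed by 0.23 ± 0.06 and 0.13 ± 0.06 at its varying probe sets (adjusted p = 0.13 and 0.32). Pmvk, the phosphomevalonate kinase, differed by -0.13 ± 0.18. Mvk, the mevalonate kinase, and the sterol enzymes Ebp and Lbr were nearly constant. In the 4 measured genes of the other mevalonate and isoprenoid enzymes 0 of 8 probe sets passed, and the 3 that varied gave 2 positive differences (Ggps1) and 1 negative one (Pmvk).

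Among the genes of SREBP processing 0 of 13 probe sets passed. Srebf1, which encodes SREBP1 and acts chiefly on fatty acid synthesis, read 10.52, 10.05, 10.33 and 9.54 in LPA4-KO mice and 9.50, 9.40, 9.57 and 9.66 in WT mice. LPA4-KO replicates 1 to 3 lay above every WT array and LPA4-KO replicate 4 lay among them (0.58 ± 0.21, adjusted p = 0.25, and 0.054 among the varying probe sets). Insig2, the second INSIG gene, had differences from -0.15 to -0.11 at its 3 probe sets, with adjusted p from 0.69 to 0.78. Without LPA4-KO replicate 3 the Insig2 differences were -0.0068 at 1417980_a_at, -0.03 at 1417981_at and -0.07 at 1417982_at. Mbtps1, the first protease that cuts SREBP, was nearly constant. The opposite signs of Insig1 and Insig2 were not tested as a difference.

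In sterol uptake and other SREBP2 targets 0 of 19 probe sets passed over all named probe sets. Stard4, a sterol carrier of the cytosol and an SREBP2 target, read 6.79, 6.91, 6.77 and 6.68 in LPA4-KO mice and 7.19, 7.02, 7.12 and 6.98 in WT mice at 1429240_at. The groups did not overlap (-0.29 ± 0.07, adjusted p = 0.10, and 0.042 among the varying probe sets). This was the 1 call among the 13 varying probe sets of the list. In that fit 10.5% of all varying probe sets passed lower in LPA4-KO mice. Lipa, the lysosomal lipase that frees cholesterol from its esters, differed by -0.31 ± 0.14 and -0.12 ± 0.06, Npc2, the lysosomal sterol carrier, by -0.31 to -0.03 at its varying probe sets, and the fatty acid binding protein gene Fabp5 by 0.16 ± 0.10 and 0.13 ± 0.14.

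Among genes of sterol efflux, storage and the oxysterol receptor LXR, 1 of 16 probe sets passed, that of Cyp27a1, which fell. It encodes the mitochondrial sterol 27-hydroxylase, which makes an oxysterol that can activate LXR. At 1417590_at it read 8.63, 8.43, 8.34 and 8.56 in LPA4-KO mice and 8.95, 9.00, 9.10 and 9.16 in WT mice, without overlap. LPA4-KO mice averaged 8.49 ± 0.13 and WT mice 9.05 ± 0.09, 1.48-fold lower (-0.57 ± 0.08, adjusted p = 0.040, and 0.0079 among the varying probe sets). Without any 1 array its adjusted p over all named probe sets lay between 0.062 and 0.11. Nr1h3, which encodes LXR alpha, read 8.50, 8.47, 8.35 and 8.55 in LPA4-KO mice and 8.28, 8.30, 8.18 and 8.19 in WT mice (0.22 ± 0.05, adjusted p = 0.10). Its groups did not overlap. Abca1, the efflux pump and an LXR target, differed by 0.04 ± 0.06 and -0.07 ± 0.11, and Apoe by -0.13 ± 0.07. Abcg1 of the same list, named here after its values were seen, differed by -0.33 ± 0.11 at 1455221_at and -0.31 ± 0.16 at 1423570_at. At 1455221_at its groups did not overlap (adjusted p = 0.20, and 0.055 among the varying probe sets). Of the list's 9 varying probe sets 4 differences were positive and 5 negative.

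Among genes that use isoprenoids, where 1 of 24 probe sets passed, Fnta, the shared alpha subunit of the protein prenyltransferases, rose. At 1417465_at Fnta read 10.01, 10.03, 10.09 and 10.06 in LPA4-KO mice and 9.82, 9.86, 9.86 and 9.92 in WT mice (0.18 ± 0.03, adjusted p = 0.043). The groups did not overlap, and the difference was small. Among the varying probe sets it did not pass (adjusted p = 0.052), and without any 1 array its adjusted p lay between 0.069 and 0.11. Its second probe set differed by 0.18 ± 0.07 (adjusted p = 0.28). Nus1 and Dpm1, genes of dolichol synthesis and use, had differences between -0.03 and 0.12 at their varying probe sets.

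**Figure D4:**
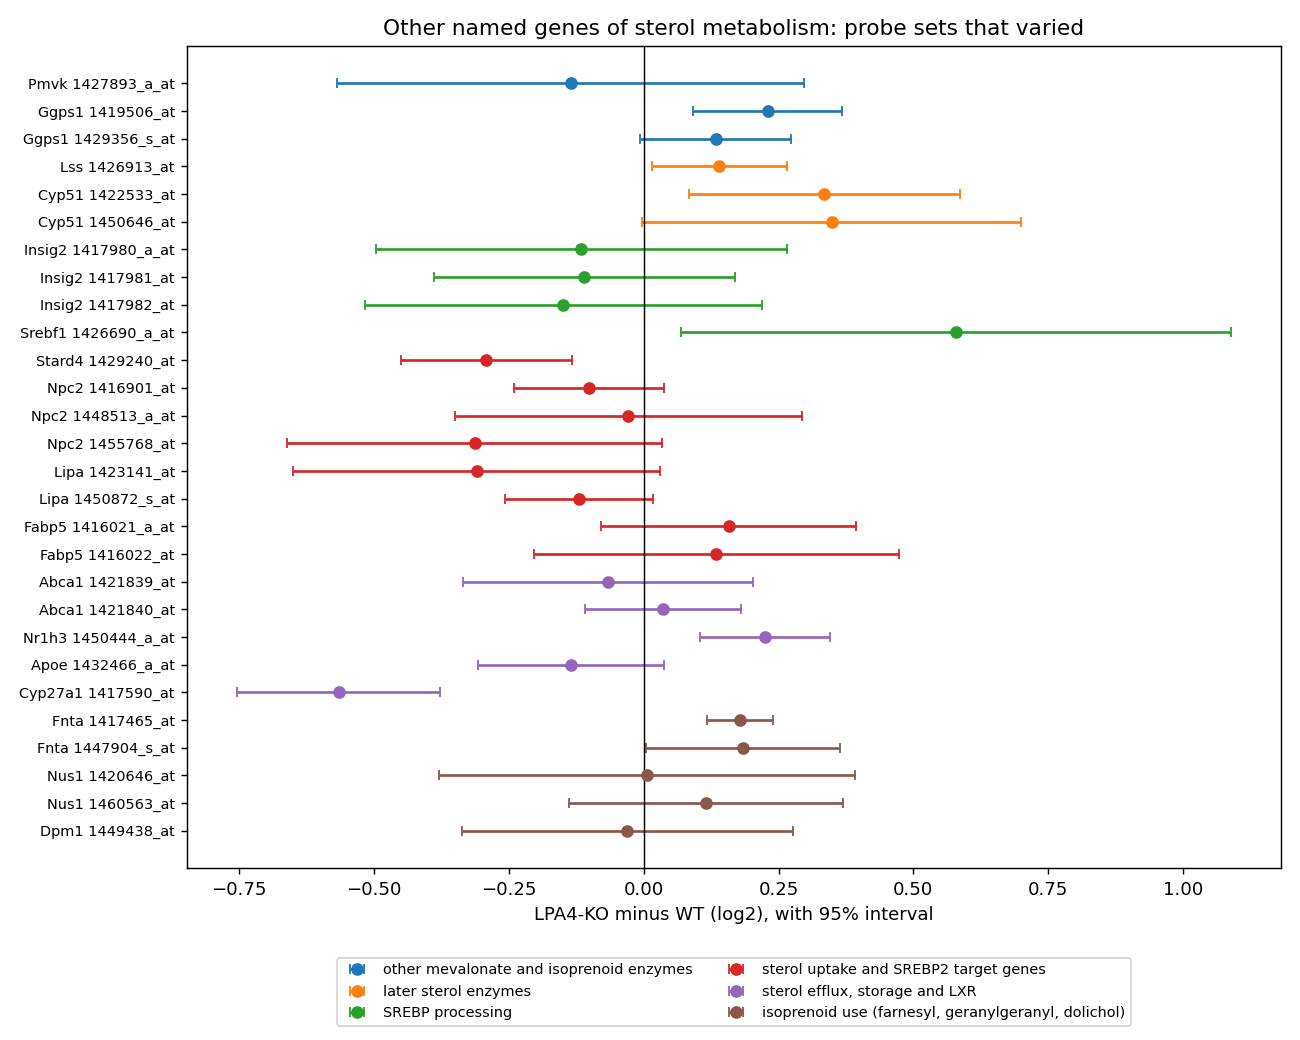
Difference between LPA4-KO and WT mice (log2, horizontal axis) at the varying probe sets of the other named genes, coloured by list, with unadjusted 95% intervals (n = 4 arrays per genotype). Sc5d and Abcg1 are not drawn. Cyp27a1 lies lowest, Srebf1 lies highest with the widest interval, and Cyp51, Lss and Ggps1 lie above 0.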

How the data were processed

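Total RNA was labelled with a 3′ in vitro transcription kit and hybridised to Affymetrix arrays, per the labels' protocols. The deposited values are log2 signals, 1 per probe set and array; R 2.14.0 is named in the submitters' processing notes, while the labels' text names no normalization, summarisation or log base. The base was inferred from the range of the values (5.27 to 14.07, array medians 6.50 to 6.51).

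Of 45101 probe sets, the 34945 with 1 gene symbol in the platform annotation were fitted with limma 3.58.1 in R 4.3.3 (lmFit, eBayes with a trend), with Benjamini-Hochberg adjustment over all of them and a threshold of 0.05. A second fit used the 6682 probe sets spanning over 0.1 log2. Exact permutation tests used all 70 arrangements of 4 against 4 arrays, and correlations 576 rearrangements within genotypes. Groups came from the labels. Members, lists and tests were chosen with earlier results of these data known. Named genes were the members, Lpar4, the called genes of each list, its 2 genes with the smallest p and its 2 brightest, and the 5 genes most like the members. The steps were tested on simulated data. Alternatives covered scaling, variance prior, array weights, filters, a replicate block and each array left out. Same-numbered LPA4-KO and WT arrays deviated with correlations from -0.20 to 0.27, so numbers were not treated as pairs. Promoters are RefSeq's, build GRCm38.p6.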

Additional observations from a re-analysis of the deposited data

How the results depend on the processing

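Counts of calls depended strongly on the processing, while the directions of Hmgcs1 and Insig1 held under all alternatives tried. The count over all named probe sets was 326, and became 535 with array weights, 595 above the median level, 1126 at an adjusted p under 0.10, 1259 among varying probe sets, 1269 among these after quantile normalization, 3 with the replicate number as a block, and 10 to 125 with 1 array left out. The split among varying probe sets turned over with scaling. It was 558 higher and 701 lower, and after quantile normalization 796 higher and 473 lower. Quantile normalization of all probe sets gave 21927 (20753 higher, 1174 lower) and median centring 28378 (27044 higher, 1334 lower), where nearly constant probe sets shifted together by tiny amounts and passed; the main split was 214 higher and 112 lower. Member calls were 0 in the main limma fit. There 8 had an unadjusted p under 0.05, 2 of them nearly constant, against 16.9% of all named probe sets. All named probe sets were more often nearly constant than the members. Member calls were 5 among varying probe sets with or without quantile normalization, 12 after quantile normalization and 14 after centring. In the last 2 fits 7 and 9 of the calls were nearly constant probe sets, with differences of at most 0.018 and 0.0080 log2. Among varying probe sets the member calls were 0 to 5 with 1 array left out and 0 with the replicate block, fits added after seeing the data. The 2 calls in the other sterol lists became 1 with the highest probe set per gene, 6 among varying probe sets after quantile normalization, 56 after quantile normalization, 64 after centring, 0 with the replicate block and 0 to 0 with 1 array left out. Lpar4 1452424_at kept -0.71 under the block but not its call (adjusted p = 0.085). Same-numbered arrays did not deviate together, and 2 of 4 LPA4-KO arrays correlated best with their own number, so the block was not used further.

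Signs that turned belonged to differences near 0. Fdft1 1438322_x_at turned to 0.0041 after centring, 0.0096 after quantile normalization and 0.019 among varying probe sets after it, and ran up to 0.079 with 1 array left out. Dpm1 turned to 0.036 with array weights. With 1 array left out, differences ran Idi1 1423804_a_at from -0.042 to 0.16, Fdft1 1438322_x_at from -0.086 to 0.079, Pmvk 1427893_a_at from -0.24 to 0.013, Npc2 1448513_a_at from -0.12 to 0.073, Abca1 1421839_at from -0.12 to 0.046, Nus1 1420646_at from -0.14 to 0.087 and Dpm1 1449438_at from -0.095 to 0.070. The cause of these turns was not tested.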
